A study of Mus musculus with 6 samples.

Results

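The expression of 32 genes of the PIWI-interacting RNA (piRNA) pathway and of germline DNA methylation was examined in fetal mouse testes at stage E12.5. Members were selected by gene symbol from a table of 24470 genes, and all 32 symbols were found. The control samples were testes of genotype Ppp1r3c f/f, in which both copies of Ppp1r3c carry loxP sites. The Ppp1r3c cKO (conditional knockout) samples were testes of genotype Sf1-Cre Ppp1r3c f/f, which add a Cre transgene driven by Nr5a1 (Sf1) sequences to the same floxed alleles. Ppp1r3c encodes a glycogen-targeting subunit of a protein phosphatase and favours glycogen storage, and Nr5a1 is expressed in somatic cells of the gonad, not in germ cells. There were 3 samples per group, each a pool of 2 gonad pairs, and all mice were kept on a C57BL/6 background. The comparison asks how these germline genes stand in testes in which Ppp1r3c was deleted with a somatic Cre.

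piRNAs are small RNAs that guide PIWI proteins to transposon transcripts in germ cells. Tudor proteins and mitochondrial or granule proteins process the precursors and assemble the complexes, and the nuclear branch of the pathway directs new DNA methylation to transposons in the fetal male germline. At E12.5 germ cells have lost most of their DNA methylation, and the wave of new methylation in male germ cells, with the factors that serve it, comes later in fetal life. Dnmt1 and Uhrf1 copy methylation at replication in dividing somatic cells, Dnmt3a and Dnmt3b add new methylation, and the Tet enzymes oxidise it.

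From general knowledge of where they are expressed, 20 members were classed as germline-restricted, 4 as mixed (Tdrkh, Pld6, Henmt1 and Tdrd7, known in germ cells and in other tissues) and 8 as broadly expressed (Tdrd3, Dnmt1, Dnmt3a, Dnmt3b, Uhrf1, Tet1, Tet2 and Tet3). The classes were set with earlier results of these data known. Of the 32 members, 29 passed the filter on low counts. The other 3, Gtsf1, Henmt1 and Dnmt3l, were near the limit of detection.

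The promoters of the members were described from RefSeq sequences of build GRCm38.p6 (the same assembly as mm10, which the deposited coordinates use). A window ran from 250 bases before to 50 bases after the start of transcription. A window was found for 27 of 32 members, 15 of them germline-restricted, 4 mixed and 8 broadly expressed, and the window nearest to the start of the deposited gene model was taken. For Tet1 that window lay 7310 bases away, and for the other members at most 473 bases away. Dnmt1, Dnmt3a, Dnmt3l, Tdrd1 and Tdrd7 had 3 windows each, and some other members had 2. Windows not taken were not described, so the motif counts and CpG medians rest on this choice. In the windows shown, capitals mark the E-box CACGTG, which reads the same on both strands, and the E2F core GCGGGA on either strand. Neither motif shares bases with the other in these windows. Ddx4 and Mael are shown for a window with both motifs, Fkbp6 for a pair of E-boxes, Asz1 as the member with the lowest p-value and neither motif, and Uhrf1 as a broadly expressed member with the E2F core alone.
Ddx4 (chr13:112652261-112652560, minus strand): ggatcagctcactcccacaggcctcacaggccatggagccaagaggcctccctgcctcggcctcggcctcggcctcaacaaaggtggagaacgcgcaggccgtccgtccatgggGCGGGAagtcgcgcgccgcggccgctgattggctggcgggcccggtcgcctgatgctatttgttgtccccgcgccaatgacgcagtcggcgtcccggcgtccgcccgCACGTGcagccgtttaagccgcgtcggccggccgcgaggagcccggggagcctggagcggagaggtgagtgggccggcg
Mael (chr1:166238695-166238994, minus strand): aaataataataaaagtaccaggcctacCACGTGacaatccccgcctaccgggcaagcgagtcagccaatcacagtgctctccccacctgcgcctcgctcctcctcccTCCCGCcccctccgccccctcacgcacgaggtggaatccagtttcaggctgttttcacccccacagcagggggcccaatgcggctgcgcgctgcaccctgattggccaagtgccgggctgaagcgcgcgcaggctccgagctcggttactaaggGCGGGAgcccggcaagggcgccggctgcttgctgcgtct
Fkbp6 (chr5:135349995-135350294, minus strand): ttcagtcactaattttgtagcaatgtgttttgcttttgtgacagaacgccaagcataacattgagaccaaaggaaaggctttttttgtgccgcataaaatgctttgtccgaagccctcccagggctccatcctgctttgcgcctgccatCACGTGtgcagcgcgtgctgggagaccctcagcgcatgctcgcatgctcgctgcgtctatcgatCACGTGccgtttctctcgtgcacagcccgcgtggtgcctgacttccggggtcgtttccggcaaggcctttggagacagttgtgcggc
Asz1 (chr6:18109012-18109311, minus strand): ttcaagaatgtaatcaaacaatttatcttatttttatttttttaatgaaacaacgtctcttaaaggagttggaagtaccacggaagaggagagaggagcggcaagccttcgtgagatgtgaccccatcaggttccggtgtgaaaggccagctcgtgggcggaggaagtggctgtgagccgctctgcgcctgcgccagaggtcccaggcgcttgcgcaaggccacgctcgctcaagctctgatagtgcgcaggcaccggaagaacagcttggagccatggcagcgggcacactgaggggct
Uhrf1 (chr17:56303087-56303386, plus strand): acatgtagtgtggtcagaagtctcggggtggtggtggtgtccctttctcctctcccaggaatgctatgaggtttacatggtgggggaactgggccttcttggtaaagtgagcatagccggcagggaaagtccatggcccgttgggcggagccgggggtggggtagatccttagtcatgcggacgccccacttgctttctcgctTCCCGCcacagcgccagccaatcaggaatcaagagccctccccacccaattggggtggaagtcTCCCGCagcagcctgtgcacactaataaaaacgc

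The E-box was found in 8 of the 15 germline-restricted windows (53.3%), in 1 of the 4 mixed and in 0 of the 8 broadly expressed windows. It was in 7.15% of all 32851 windows of the RefSeq table, and in 9.97% of the windows of 12211 tested genes, taken at 1 window per gene. The members with an E-box were Piwil1, Mael, Tdrd1, Tdrd9, Mov10l1, Ddx4, Fkbp6 and Stk31, and Pld6 among the mixed. The E-box began 29 bases before the start in Ddx4, 11 bases before it in Tdrd1, 33 in Pld6 and 37 in Fkbp6, which had another at 101. The E2F core was in 4 of 15 germline-restricted and 5 of 8 broadly expressed windows, against 20.0% of all windows and 35.2% of those of tested genes. The germline-restricted windows had a median CpG content of 0.733 of that expected from their base composition, the broadly expressed windows 0.651, and those of tested genes 0.742. These are medians, and single windows lay on both sides of the tested-gene value, from 0.272 (Dnmt3l) to 1.11 (Tdrd5) in the germline-restricted class and from 0.101 (Dnmt1) to 1.17 (Tet2) in the broadly expressed class. The Dnmt1 value is for 1 of its 3 windows, and its other windows were not described. A motif match is a description of the letters, and binding was not measured.

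**Figure D1:**
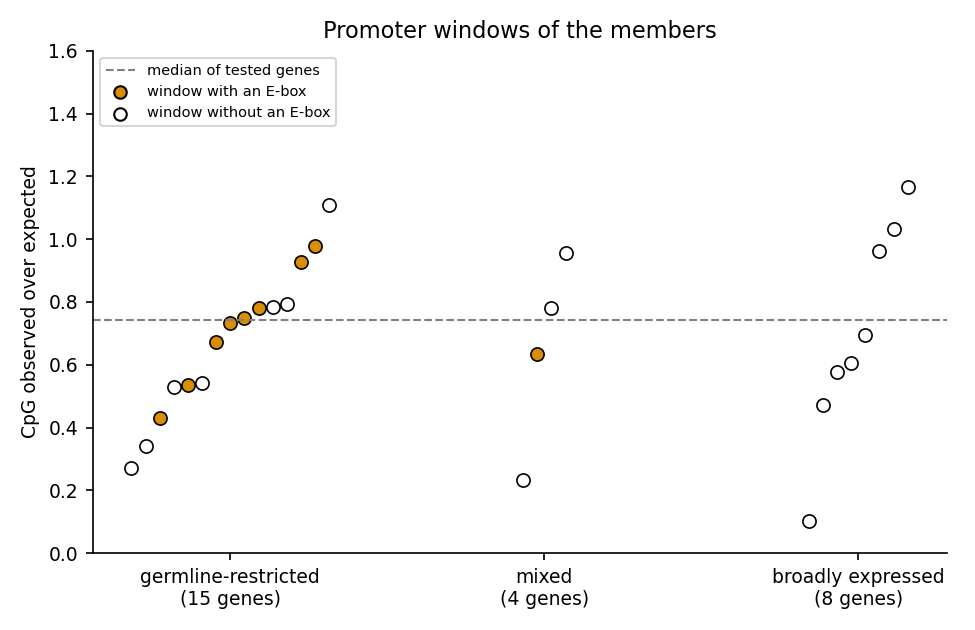
CpG observed over expected (vertical axis, a ratio) in the promoter windows of 15 germline-restricted, 4 mixed and 8 broadly expressed members. Each circle is 1 gene, filled where the window holds CACGTG, and the dashed line is the median of tested genes (0.742). Filled circles are 8 of 15, 1 of 4 and 0 of 8.

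Libraries held between 16139487 and 44145158 counts, and control replicate 1 was the shallowest. Ppp1r3c, the targeted gene (chromosome 19, 36731731 to 36736604, minus strand), was at 24.4, 22.1 and 22.9 CPM in control replicates 1 to 3 and 4.71, 5.37 and 5.96 CPM in cKO replicates 1 to 3 (CPM are counts scaled to library size), so that the groups did not overlap. It fell by 2.11 on the log2 scale (SE 0.111) at an edgeR FDR, the p-value adjusted over all tested genes, of 0.000126. Nr5a1 was at 372, 360 and 311 CPM in the controls and 512, 593 and 546 CPM in the cKO samples, in replicate order. Its log2 fold change was 0.66 with an SE of 0.0801 and an edgeR FDR of 0.0401. The Cre was in the cKO samples only, so the transgene and the deletion of Ppp1r3c cannot be told apart. The labelled tissue was checked against marker lists. All 8 Sertoli and all 12 germ cell markers were detected in every sample. Xist, a transcript of XX cells, had 12534 counts in cKO replicate 3 and 6 to 41 counts in the other 5 samples. The 6 pre-granulosa (ovarian supporting cell) markers summed to 268 CPM in that sample and to 82.8 to 100.2 CPM in the other 5. Its Sertoli markers summed to 1537 CPM, against 1598 to 2079 CPM in the others. Of these, Amh (588 CPM), Dhh, Ptgds and Aard were lowest in that library. Sox9 (175 CPM), Inhbb (268 CPM), Dmrt1 and Fgf9 lay within the range of the other samples. The library labelled cKO replicate 3 thus goes in part against its label of testis, and without it the median log2 fold changes given next were -0.74 (germline-restricted), -0.56 (mixed) and 0.076 (broadly expressed).

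Most germline-restricted members had fold changes below 0 and most broadly expressed members lay close to 0, but no member passed the edgeR test and the difference between the classes was not tested. Of 18 tested germline-restricted members, 17 had a log2 fold change (cKO over control) below 0, with a median of -0.73 and a range of -1.07 to 0.17. The 3 tested mixed members were all below 0, with a median of -0.46. Of the 8 broadly expressed members, 2 (Tet1 and Dnmt1) were below 0 and 6 above, with a median of 0.08. The median over all 15577 tested genes was -0.0034, and 50.9% of them were below 0.

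No single member passed the edgeR quasi-likelihood test after Benjamini-Hochberg adjustment over all genes. The count was 0 in either direction, where 0.00642% of genes were called lower and 0.0321% higher. At an unadjusted p under 0.05, 13 of 29 members were lower, against 5.80% of tested genes, and 0 were higher, against 5.56%. The 13 were Piwil2, Tdrd1, Tdrd5, Tdrd12, Tdrkh, Rnf17, Stk31, Mael, Asz1, Mov10l1, Ddx4, Fkbp6 and Tet1. Of the 12 germ cell markers, 11 were lower at the same unadjusted p, so such a count is not particular to the members. DESeq2, the tool of the study, called 4 of the 26 members to which it gave an adjusted p, all lower (Asz1, Mael, Tdrd12 and Tdrkh), against 0.379% of genes called lower and 0.400% called higher. limma-voom called 0 members. With 3 against 3 samples an exact permutation test of a single value cannot go below p = 0.1.

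The DESeq2 calls depended on which libraries were included. There were 9 without control replicate 1 (1.46% of all genes) and 8 without cKO replicate 1 (1.45%), and both sets held the 4 genes named. With control replicate 2 left out there were 0 among the members and 4 lower calls over all 16746 genes with an adjusted p. With cKO replicate 2 left out there were 0 among the members and 18 over 14542 genes, and with cKO replicate 3 left out 0 and 5 over 17181. With all samples, 54 of 14243 genes were called lower, so calls were lost across all genes and not among the members alone. Leaving out control replicate 3 also gave 0 member calls, but only 4 members and 1604 genes received an adjusted p, and 17 of those genes were called lower. The edgeR count of lower members at an unadjusted p under 0.05 was 7 with control replicate 3 left out (4.93% of all genes) and 8 with control replicate 2 left out (3.27%). It was 11 with cKO replicate 3 left out (4.29%) and 17 with control replicate 1 left out (7.76%).

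**Figure D2:**
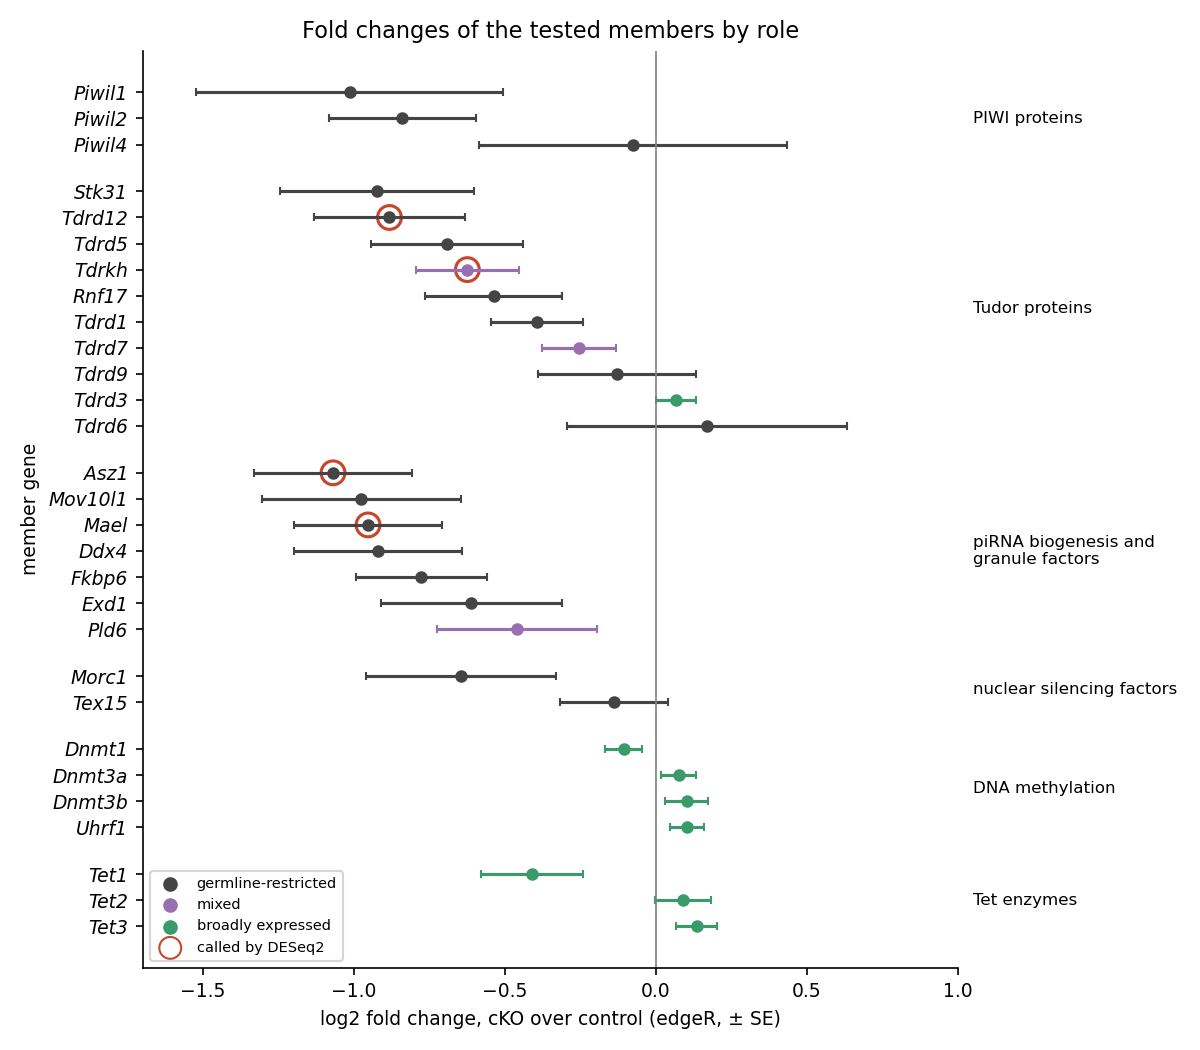
Log2 fold change of cKO over control (horizontal axis, edgeR, bars are SE) for the 29 tested members, grouped by role and coloured by class, with the 4 members called by DESeq2 ringed. The piRNA biogenesis factors lie between -1.07 and -0.46, whereas Dnmt1, Dnmt3a, Dnmt3b and Uhrf1 lie between -0.11 and 0.10.

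The spread between samples was large within both groups. The level of the class in a sample, as the mean difference in log2 CPM from the control mean, was -0.50, 0.14 and 0.36 in control replicates 1 to 3 and -0.22, -1.03 and -0.56 in cKO replicates 1 to 3. The groups overlapped, through control replicate 1. The 12 germ cell markers, which share no gene with the members, had levels of -0.39, 0.20 and 0.19 in control replicates 1 to 3 and -0.36, -1.42 and -0.71 in cKO replicates 1 to 3. In both, control replicate 1 lay below cKO replicate 1 and cKO replicate 2 was the lowest. Their summed level was 483 to 744 CPM in control and 221 to 492 CPM in cKO testes, all 12 had a log2 fold change below 0 (median -0.82), and none was at 0 counts in any sample. Their part in the member results was not tested. In whole testes, fewer germ cells and less RNA per germ cell cannot be told apart.

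**Figure D3:**
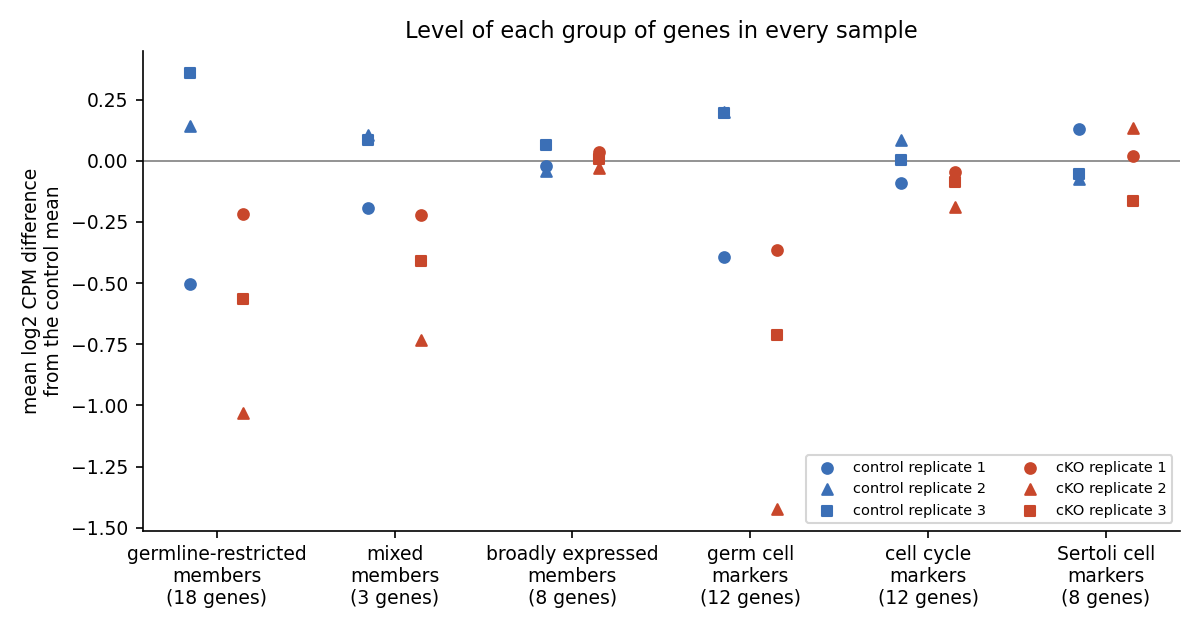
Mean log2 CPM difference from the control mean (vertical axis) of the tested members by class and of 3 marker lists, with 1 point for each of the 6 samples. The germline-restricted members and the germ cell markers are lowest in cKO replicate 2 (-1.03 and -1.42), and the broadly expressed members stay between -0.04 and 0.06.

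Among the PIWI proteins, Piwil2 (MILI), which binds piRNAs in fetal germ cells, was the only one well detected. Piwil2 (chromosome 14, 70372480 to 70429094, minus strand) was at 23.2, 39.3 and 39.8 CPM in control replicates 1 to 3 and 24.8, 12.9 and 20.1 CPM in cKO replicates 1 to 3. Its cKO values lay below those of control replicates 2 and 3, but control replicate 1 fell within the cKO range. The log2 fold change was -0.84 with an SE of 0.244, and the FDR was 0.377 in edgeR and 0.324 in DESeq2. Piwil1 (MIWI), known from meiotic and later male germ cells, had 8, 36 and 31 counts in control replicates 1 to 3 and 25, 4 and 10 counts in cKO replicates 1 to 3, and Piwil4 (MIWI2), the nuclear PIWI protein of later fetal male germ cells, had 5, 36 and 33 counts in control replicates 1 to 3 and 40, 8 and 24 counts in cKO replicates 1 to 3. Both were too low for a firm direction: the fold change of Piwil4 was -0.08 (SE 0.511) and turned to 0.33 without cKO replicate 2, and that of Piwil1 was -1.01 (SE 0.509).

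Tudor proteins bind the methylated arginines of PIWI proteins and hold the complexes together. Of the 10 Tudor members, 8 had a log2 fold change below 0, and the median was -0.47. Tdrd12 (chromosome 7, 35493610 to 35537744, minus strand), a Tudor protein with a helicase domain, was at 6.59, 11.2 and 10.3 CPM in control replicates 1 to 3 and 6.11, 3.45 and 5.90 CPM in cKO replicates 1 to 3. Every cKO sample lay below every control sample, although control replicate 1 and cKO replicate 1 were close. Its log2 fold change was -0.88 with an SE of 0.249, and the FDR was 0.377 in edgeR and 0.0412 in DESeq2.

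Tdrkh (chromosome 3, 94413318 to 94431499, plus strand), which tethers PIWI proteins to mitochondria, was at 13.4, 18.6 and 17.8 CPM in control replicates 1 to 3 and 13.5, 9.15 and 9.80 CPM in cKO replicates 1 to 3. Only cKO replicate 1 reached the control range, just above control replicate 1. Its log2 fold change was -0.62 with an SE of 0.170, and the FDR was 0.377 in edgeR and 0.0449 in DESeq2. Tdrd1 (chromosome 19, 56826209 to 56870012, plus strand), a granule protein that binds Piwil2, was at 5.36, 6.36 and 7.47 CPM in control replicates 1 to 3 and 4.86, 4.92 and 4.93 CPM in cKO replicates 1 to 3. Its cKO samples were nearly identical and all lay below the controls, and the log2 fold change was -0.39 with an SE of 0.153 and an FDR of 0.401 in edgeR.

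Every cKO sample lay below every control sample for 3 of 29 members (Tdrd1, Tdrd12 and Asz1), against 7.17% of tested genes, and above for 1 (Uhrf1), against 8.42%. That count was 19 without control replicate 1, against 17.3% of genes, and 14 without cKO replicate 1, against 15.6%. Control replicate 1 was thus the library that most often closed the gap between the groups.

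The remaining Tudor members spread widely. Stk31 (-0.92, SE 0.321), Tdrd5 (-0.69, SE 0.252) and Rnf17 (-0.54, SE 0.226) had the lower log2 fold changes, each at an edgeR FDR of 0.380 to 0.420. Tdrd7, the mixed member of highest level per length in control with 4.02 CPM per kb of exon, was at 14.6, 15.2 and 18.0 CPM in control replicates 1 to 3 and 15.2, 13.2 and 11.7 CPM in cKO replicates 1 to 3, and the groups overlapped. Tdrd9 (-0.13, SE 0.262), Tdrd6 (0.17, SE 0.463, with 3 to 17 counts per sample) and Tdrd3 (0.07, SE 0.0671), a broadly expressed Tudor protein, had fold changes no larger than about 1 SE.

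The factors of piRNA biogenesis and of the germ granule were the lowest role by median, with all 7 tested members below 0 and a median of -0.92. The median was -0.84 for the PIWI proteins and -0.82 for the 12 germ cell markers, and the difference between roles was not tested. Asz1 (chromosome 6, 18050964 to 18109061, minus strand), a mitochondrial membrane protein that anchors the processing machinery, was at 7.39, 14.2 and 17.1 CPM in control replicates 1 to 3 and 7.28, 5.26 and 6.17 CPM in cKO replicates 1 to 3. All cKO samples lay below all controls, with cKO replicate 1 just under control replicate 1. The log2 fold change was -1.07 with an SE of 0.261, and the FDR was 0.377 in edgeR and 0.00474 in DESeq2. When single samples were left out, the fold change ran from -1.32 (without control replicate 1) to -0.82 (without control replicate 3).

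Mael (chromosome 1, 166201385 to 166238744, minus strand), a granule protein needed for transposon silencing, was at 7.08, 11.2 and 14.0 CPM in control replicates 1 to 3 and 7.16, 4.76 and 4.96 CPM in cKO replicates 1 to 3. The value of cKO replicate 1 was just above that of control replicate 1, so the groups touched. The log2 fold change was -0.95 with an SE of 0.245, and the FDR was 0.377 in edgeR and 0.0135 in DESeq2. Ddx4 (chromosome 13, 112598333 to 112652310, minus strand), the germ cell helicase Vasa, had the highest level per length of the germline-restricted members (31.0 CPM per kb of exon in control). It was at 54.7, 109 and 117 CPM in control replicates 1 to 3 and 61.0, 33.5 and 54.8 CPM in cKO replicates 1 to 3, so that cKO replicates 1 and 3 lay above control replicate 1 and all cKO samples lay below the other controls. Its log2 fold change of -0.92 (SE 0.279) had an edgeR FDR of 0.377 and a DESeq2 FDR of 0.356.

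Mov10l1, the helicase that feeds precursors into processing, had a log2 fold change of -0.98 (SE 0.329), Fkbp6, a co-chaperone of piRNA loading, -0.78 (SE 0.217), Exd1 -0.61 (SE 0.300) and Pld6, a mitochondrial nuclease of piRNA processing, -0.46 (SE 0.264). Their edgeR FDR lay between 0.377 and 0.529. Among low genes, Gtsf1, a partner of PIWI proteins, had 1, 7 and 5 counts in control replicates 1 to 3 and 5, 3 and 8 counts in cKO replicates 1 to 3, and Henmt1, which methylates the ends of piRNAs, had 3, 5 and 11 counts in control replicates 1 to 3 and 6, 3 and 1 counts in cKO replicates 1 to 3. No comparison was made for either at this depth.

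The nuclear silencing factors were Morc1 and Tex15. Morc1 (chromosome 16, 48431237 to 48630905, plus strand), an ATPase required for transposon silencing, was at 2.40, 5.82 and 6.86 CPM in control replicates 1 to 3 and 3.87, 2.95 and 3.09 CPM in cKO replicates 1 to 3. Control replicate 1 was the lowest of all 6 samples, and the cKO samples lay within the control range. The log2 fold change was -0.64 with an SE of 0.314 and an FDR of 0.467 in edgeR. Tex15, a partner of the nuclear PIWI protein, had one of the smallest fold changes of the germline-restricted members, -0.14 (SE 0.179), with 22.3, 23.0 and 28.1 CPM in control replicates 1 to 3 and 24.4, 15.7 and 26.8 CPM in cKO replicates 1 to 3. Only cKO replicate 2 stood below the controls, and without it the fold change was 0.06.

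**Figure D4:**
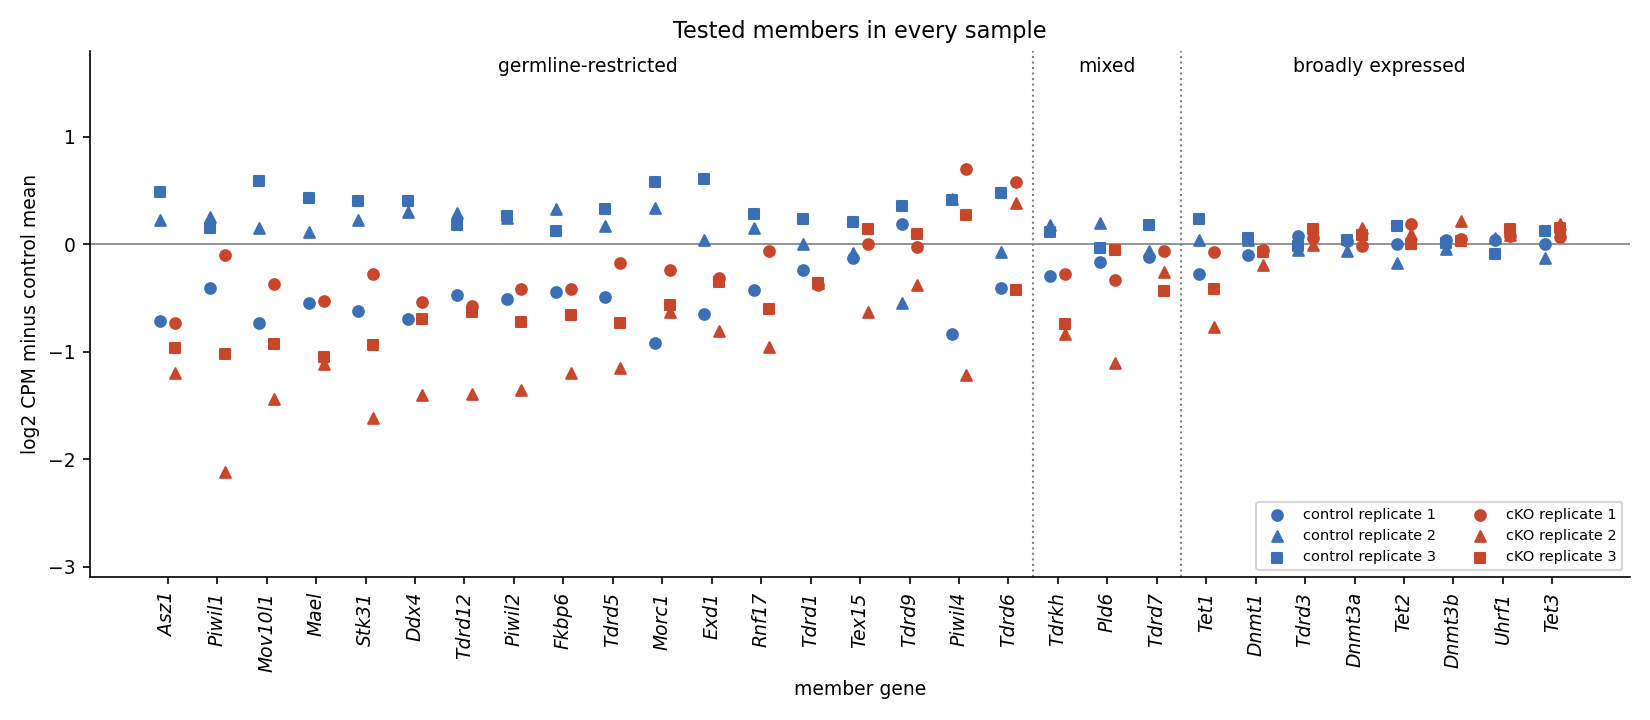
Log2 CPM minus the control mean (vertical axis) for each of the 29 tested members (horizontal axis, by class and then by fold change), with 1 point for each of the 6 samples. For most germline-restricted members control replicate 1 lies among the cKO samples and cKO replicate 2 lies lowest, while the points of 7 of the 8 broadly expressed members stay close to 0.

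The broadly expressed DNA methyltransferase genes were nearly level between groups in whole testes. Dnmt1 and Dnmt3a were abundant, and Dnmt3b was lower, at 7.44 CPM per kb in control. The level of these genes, and of Uhrf1, in germ cells alone was not measured. Dnmt1 (chromosome 9, 20907206 to 20959888, minus strand), the maintenance methyltransferase, had the highest level per length of all members (57.3 CPM per kb in control) and was at 395, 435 and 438 CPM in control replicates 1 to 3 and 408, 370 and 400 CPM in cKO replicates 1 to 3. The groups overlapped, and the log2 fold change was -0.11 with an SE of 0.0621 and an FDR of 0.533 in edgeR. Uhrf1 (chromosome 17, 56303337 to 56323486, plus strand), which brings Dnmt1 to replicating DNA, was at 232, 235 and 213 CPM in control replicates 1 to 3 and 239, 241 and 250 CPM in cKO replicates 1 to 3. Every cKO sample lay above every control sample, by a small amount, and the log2 fold change was 0.10 with an SE of 0.0551 and an FDR of 0.502 in edgeR. Both genes are expressed in dividing cells, and the 12 cell cycle markers had a median log2 fold change of -0.11, all 12 below 0. Against 5.80% of all tested genes, 2 of these 12 markers were lower at an unadjusted edgeR p under 0.05. Their summed level was 3600 to 4065 CPM in control and 3424 to 3770 CPM in cKO testes, and their part in the values of Dnmt1 and Uhrf1 was not tested.

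Dnmt3a (0.08, SE 0.0591) and Dnmt3b (0.10, SE 0.0709), which set new methylation, had edgeR FDRs of 0.647 and 0.600. Dnmt3l, the cofactor of new methylation in male germ cells, had 1, 2 and 3 counts in control replicates 1 to 3 and 0, 2 and 0 counts in cKO replicates 1 to 3. The libraries at 0 counts allow up to 3 counts, or 0.0748 CPM in cKO replicate 1 and 0.0908 CPM in cKO replicate 3, a limit that covers counting error only. Dnmt3l and Piwil4, which serve the later wave of methylation, were thus both at under 1 CPM in all 6 samples.

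Of the Tet enzymes, Tet1 stood apart. Tet1 (chromosome 10, 62804570 to 62880014, minus strand), which is abundant in embryonic stem cells and primordial germ cells and also made elsewhere, was at 118, 147 and 167 CPM in control replicates 1 to 3 and 136, 83.6 and 107 CPM in cKO replicates 1 to 3. Its samples followed the order of the germline-restricted level, with cKO replicate 2 lowest, and the groups overlapped. The log2 fold change was -0.41 with an SE of 0.168 and an FDR of 0.413 in edgeR, against 0.09 (SE 0.0934) for Tet2 and 0.14 (SE 0.0690) for Tet3.

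Levels per length, from the union of exons in GENCODE M21 on the same assembly, ordered the members in control testes as Dnmt1 (57.3 CPM per kb), Uhrf1 (53.2), Ddx4 (31.0), Dnmt3a (20.5), Fkbp6 (14.6) and Stk31 (10.9). Below them, Tet1 (9.32), Tdrd3 (8.94) and Tet3 (8.75) were close together. Ddx4, Fkbp6 and Stk31 thus lay among the broadly expressed members. Piwil2 was at 6.45 and Mael at 6.21 CPM per kb, a difference within the spread of their control samples.

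The members were then set against the germ cell markers. In each sample the mean log2 CPM of the 12 markers was subtracted from the log2 CPM of each member, which gives a log2 level relative to germ cell markers. On this scale the median group difference of the 18 germline-restricted members was 0.11, with 7 below and 11 above 0. Over the 6 samples, their median SD was 0.599 in log2 CPM and 0.270 relative to the markers, and it was smaller relative to the markers for 14 of 18. For the 8 broadly expressed members the median SD was 0.0903 in log2 CPM and 0.657 relative to the markers. It was smaller relative to the markers for 1, Tet1. Subtracting markers that vary between samples widens, by construction, a gene that is level in CPM. An SD over all 6 samples also includes the difference between the groups, so these SDs are a description only.

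Piwil2 held the narrowest range on this scale, 0.20, 0.36 and 0.39 in control replicates 1 to 3 and 0.26, 0.39 and 0.31 in cKO replicates 1 to 3, a difference of 0.0029 between the groups (exact permutation p = 1.0). Its log2 CPM spanned 1.62 over the same samples, and its level relative to the markers spanned 0.19. Fkbp6 spanned 0.30 relative to the markers, Tdrd12 0.30, Tdrd5 0.37, Stk31 0.43 and Ddx4 0.50, each with overlapping groups. Asz1 and Mael, which had the lowest p-values in CPM, had group differences of -0.13 and -0.07 relative to the markers (exact permutation p = 0.6 and 0.7).

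Rnf17 and Tex15 were the germline-restricted members whose cKO samples all lay above the controls relative to the markers, a position taken by 40.5% of all tested genes on this scale, while 0 members and 0.0963% of genes lay below. Tex15 was at 0.14, -0.40 and -0.11 in control replicates 1 to 3 and 0.24, 0.67 and 0.73 in cKO replicates 1 to 3, a difference of 0.67 (exact permutation p = 0.1, the smallest possible). Rnf17 differed by 0.29 (exact permutation p = 0.1). Of 29 members tested on this scale, 8 reached that p, and the smallest adjusted value over them was 0.362. Tet1 differed by 0.41, less than the other 7 broadly expressed members, whose differences ran from 0.73 (Dnmt1) to 0.97 (Tet3). The markers, whose means were lower in cKO testes, are subtracted from every gene, so a gene at the same CPM in both groups is higher on this scale.

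**Figure D5:**
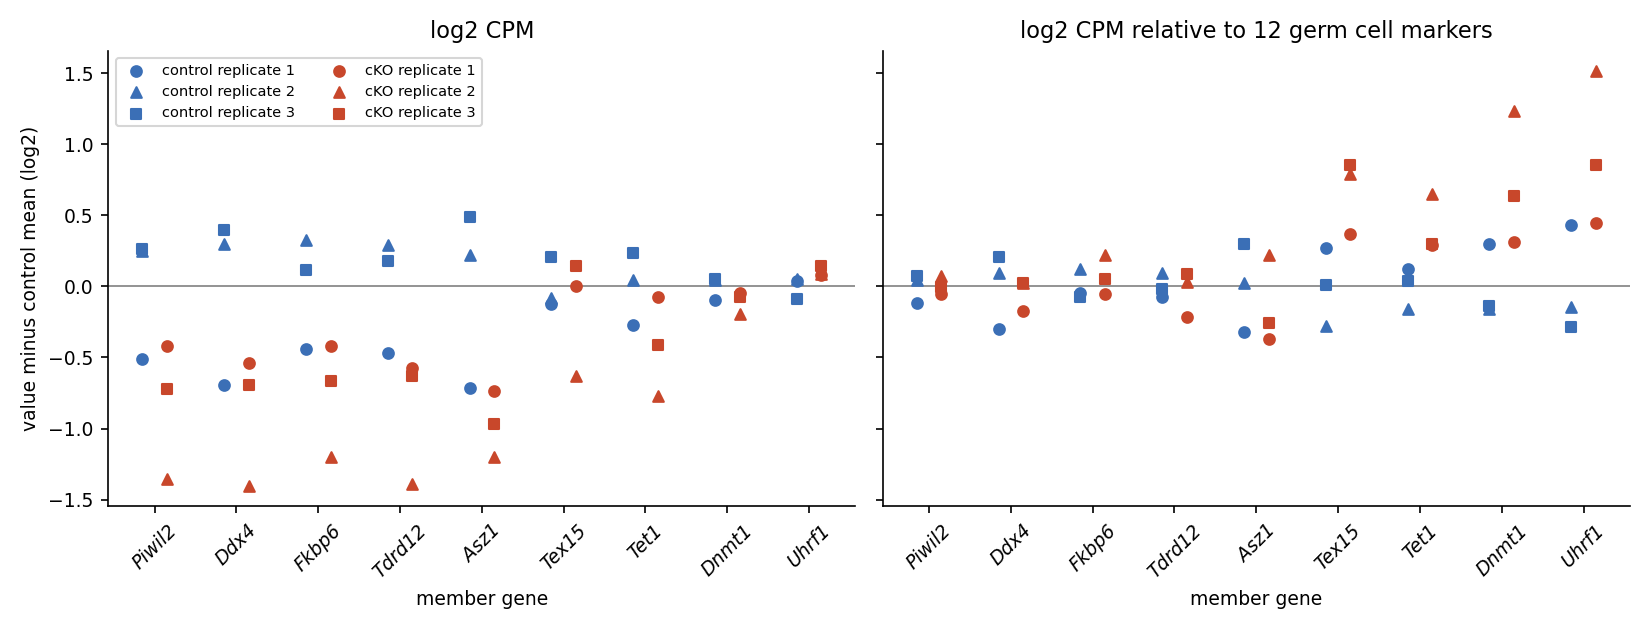
Values of 9 members in each of the 6 samples, minus the control mean (vertical axis, log2), as log2 CPM (left) and relative to 12 germ cell markers (right). The samples of Piwil2, Fkbp6 and Tdrd12 draw together on the right, whereas those of Dnmt1 and Uhrf1 spread apart.

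Other genes of the pathway were taken from lists written by function. Of 12 further piRNA factors, 10 were tested, all 10 had a log2 fold change below 0 (median -0.61), and edgeR and DESeq2 called 0. Of the 10, 4 were lower at an unadjusted edgeR p under 0.05, against 5.80% of all tested genes. Nanos2 was below the filter and Spocd1 was not analysed here. Tex19.1, a germline genome defence gene, was at 21.9, 33.6 and 31.0 CPM in control replicates 1 to 3 and 19.4, 9.43 and 16.3 CPM in cKO replicates 1 to 3, with no overlap between groups. Its log2 fold change was -0.95 with an SE of 0.238 and an FDR of 0.377 in edgeR. Tex19.2 is a close paralog, so reads that match both are uncertain. Prmt5 (-0.10, SE 0.0828) and Wdr77 (-0.09, SE 0.0683), whose enzyme methylates PIWI proteins and which all cells use, were near 0.

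Of 16 further DNA methylation and chromatin factors, 8 were below and 8 above 0 (median 0.015), and edgeR and DESeq2 called 0. Against 5.80% of all tested genes, 1 of the 16 was lower at an unadjusted edgeR p under 0.05. That gene was Hells, a chromatin remodeller needed for DNA methylation, and its log2 fold change was -0.39 with an SE of 0.149 and an FDR of 0.399 in edgeR.

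Marker lists of the other cell types of the testis had median log2 fold changes of -0.08 (Sertoli), -0.31 (fetal Leydig), -0.03 (interstitial), -0.0002 (endothelial), -0.04 (macrophage), -0.08 (erythroid), 0.52 (mesonephros) and 1.02 (pre-granulosa), and edgeR called 0 of their genes. The 4 mesonephros genes ran from -0.78 (Lhx1) to 0.78 (Pax2), with 1 below 0 and 3 above. Some of the medians of these lists rested on cKO replicate 3. The fetal Leydig levels were -0.42, 0.06 and 0.36 in control replicates 1 to 3 and -0.20, 0.14 and -0.93 in cKO replicates 1 to 3, and the pre-granulosa levels were -0.02, 0.22 and -0.20 in control replicates 1 to 3 and 0.31, 0.30 and 2.41 in cKO replicates 1 to 3. Without cKO replicate 3 the medians were -0.05 (fetal Leydig), 0.30 (pre-granulosa), 0.43 (mesonephros), -0.06 (macrophage) and -0.10 (erythroid), and those of the Sertoli (0.04), interstitial (0.0044) and endothelial (0.030) lists were above 0. The germ cell marker median was -0.84 and the cell cycle median -0.13 without that library, and those of the further piRNA and DNA methylation factors were -0.49 and 0.0097. With all samples, the genes of lowest p, with log2 fold changes, were Sox9 (0.28), Insl3 (-0.33), Nr2f2 (0.09), Pecam1 (-0.19), Cx3cr1 (-0.05), Hbb-bh1 (0.42), Pax8 (0.52) and Fst (4.02) in that order of lists. They were Mcm7 (-0.16) for the cell cycle and Dppa3 (-1.24) for germ cells, and the edgeR FDRs were 0.377 to 0.903. Sox9, Nr2f2 and Hbb-bh1 had the opposite sign to the median of their list. Among germ cell markers DESeq2 called Dnd1 (log2 fold change -0.71, DESeq2 FDR 0.0429).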

How the data were processed

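RNA of 6 pools of E12.5 testes (3 control, 3 cKO, grouped and numbered by their titles) was sequenced from stranded mRNA libraries. The deposited values were raw counts of read pairs per gene: the authors aligned to mm10 with STAR (2.5), and counted over RefSeq Curated genes with featureCounts (Subread 1.5.0-p1) in reverse-stranded mode. Column totals ranged from 16139487 to 44145158 counts, and intervals from counts cover counting error only.

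Cross-group fits were made with edgeR 4.0.16 in R 4.3.3 across all genes (filterByExpr, minimum count 10, TMM, quasi-likelihood F-test on the group term, no covariates). P-values were adjusted over the 15577 genes that passed, and a gene is called at an FDR below 0.05. The SE comes from the F statistic. CPM were taken on TMM-scaled totals, with a prior count of 2 on the log2 scale. DESeq2 1.42.0 and limma 3.58.1 (voom) were alternatives, with RLE scaling, other filters, a replicate block, thinned libraries and each sample left out. The scripts were tested on simulated data. No pair of replicates agreed within sampling noise. The labels do not say whether pools shared litters, so p-values measure the spread between these samples. The replicate numbers were checked for pairing, as given with the alternatives.

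Values were shown for Ppp1r3c, members called by either tool or without overlap, the member of lowest p in each role, the highest level per length in each class, and members below the filter. Other genes are named if called or of lowest p in their list, and any further gene was named after its values were seen. The members, classes and lists were chosen with earlier results of these data known.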

Additional observations from a re-analysis of the deposited data

How the results depend on the processing

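The count of members called lower was 0 in edgeR and in each alternative other than DESeq2, which gave 4, and the count called higher was 0 in all of them. The DESeq2 count without single samples ranged from 0 to 9, the count at an unadjusted p under 0.05 from 7 to 17, and the count of members without overlap from 3 to 19. These settings, like those for the levels relative to markers and for the marker lists, were added after the data were seen. Ppp1r3c kept its call, with log2 fold changes of -2.20 to -2.03 without single samples. The germline-restricted median was below 0 in all alternatives and ranged from -0.98 to -0.58 without single samples. The broadly expressed median ranged from 0.032 to 0.098, and the mixed median from -0.56 to -0.24. In thinned libraries the mixed median was -0.15. Relative to germ cell markers the germline-restricted median ranged from 0.041 to 0.16 without single samples and was 0.18 in thinned libraries. That value comes from no fit, so tools and filters do not enter it. DESeq2 called Mael (-0.95), Tdrd12 (-0.88), Tdrkh (-0.62) and Asz1 (-1.06), which edgeR did not. Without single samples the sign turned for Piwil4 (-0.55 to 0.33), Tdrd6 (-0.083 to 0.51), Tdrd9 (-0.39 to 0.078), Tex15 (-0.29 to 0.061) and Tet2 (-0.0077 to 0.18).

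The titles share replicate numbers, but the correlation between equally numbered samples, after removal of group means, was -0.20, -0.27 and -0.13, and the samples share only a number. Under the replicate block, 0 members were called in either direction, 11 were lower at an unadjusted p under 0.05 (3.19% of all genes), and the medians were -0.74 (germline-restricted), 0.084 (broadly expressed) and -0.50 (mixed). No value under the block is given for Nr5a1. The block changed no other call given here, with Ppp1r3c at -2.12, and edgeR called 3 of all genes in place of 6. Depth limits what can be said of Gtsf1, Henmt1, Dnmt3l, Piwil1, Piwil4 and Tdrd6.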
